A study of Mus musculus with 8 samples.

Results

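The Bcl2 family and Apaf1 were examined in germinal center-like B cells that had lost Prmt5. The members were chosen by gene symbol in the gene table and in the splicing tables, and were 10 of the 39017 genes listed. All 10 passed the filter of a mean of at least 10 normalized counts, which are reads divided by the size factor of their library. They comprised the pro-survival genes Bcl2, Bcl2l1 and Mcl1, the effectors Bax and Bak1, the BH3-only genes Bcl2l11, Bbc3, Pmaip1 and Bid, and Apaf1. RNA was sequenced from iGBs, which are splenic B cells of C57BL6/J mice grown with 1 ng/mL IL-4 on 40LB feeders, a fibroblast line that expresses CD40L and BAFF, and parted from the feeders by elutriation at day 4. The 4 Prmt5-null libraries came from Prmt5 F/F Cγ1-cre mice (10617, 10618, 10770 and 10771), with 1 mouse per library, and the 4 control libraries from Cγ1-cre mice (CTRL-10370, CTRL-10596, CTRL-10597 and CTRL-10650), so both genotypes carried the Cre. Cγ1-cre acts only once B cells are activated, and the animals' age is not given in the labels. The cultures came from 2 experiments, and which library came from which is not labelled.

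The Bcl2 family decides whether the mitochondrial outer membrane stays intact. Pro-survival proteins hold Bax and Bak1 in check, BH3-only proteins neutralize the pro-survival proteins or activate the effectors directly, and opened mitochondria release cytochrome c, which Apaf1 assembles into the apoptosome to activate caspase 9. In B cells, activation and the germinal center reaction are known for shifting this balance, and Bax, Bbc3, Pmaip1 and Apaf1 are known targets of the transcription factor p53.

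The regions before the start sites of the members are shown where a gene passed the 1.5-fold call (Bax and Bbc3) and for Bcl2l11, the member with the widest spread between libraries. RefSeq start sites on GRCm38.p6 gave 14 windows for 9 members, and Pmaip1 is named only. Windows ran from 250 bases before to 50 bases after the start, and both strands were searched for GTAAACA, a core of FOXO sites, and for the p53 half-site. A p53 half-site match was found in the Bax window, with its first base at -201 from the start, and in no other member's window. It is a description, since 8.36% of all 32851 windows of 300 bases held one. GTAAACA was found in 1 of the 3 Bbc3 windows, at -167, and in 1 of the 2 Bcl2l11 windows, at -227, against 3.65% of all windows. The printed 250 bases hold no annotated exon of the gene, and run 5′ to 3′ on its strand with matches in capitals. They are Bax at chr7:45466899-45467148 (minus strand), Bbc3 at chr7:16310011-16310260 (plus strand) and Bcl2l11 at chr2:128125788-128126037 (plus strand). For Bbc3 and Bcl2l11 only the window with the match is printed, and their other windows, which held no match, are left out.
Bax (p53 half-site): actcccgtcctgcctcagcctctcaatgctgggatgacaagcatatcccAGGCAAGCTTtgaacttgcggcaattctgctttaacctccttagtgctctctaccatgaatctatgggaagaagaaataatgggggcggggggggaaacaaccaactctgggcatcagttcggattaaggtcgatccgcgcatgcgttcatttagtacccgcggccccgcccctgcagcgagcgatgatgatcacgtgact
Bbc3 (GTAAACA on the opposite strand): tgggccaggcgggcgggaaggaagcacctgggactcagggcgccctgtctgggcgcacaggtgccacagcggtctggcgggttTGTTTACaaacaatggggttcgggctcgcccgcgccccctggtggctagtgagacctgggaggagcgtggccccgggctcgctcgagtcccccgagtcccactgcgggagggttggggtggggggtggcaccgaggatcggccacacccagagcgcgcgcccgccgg
Bcl2l11 (GTAAACA): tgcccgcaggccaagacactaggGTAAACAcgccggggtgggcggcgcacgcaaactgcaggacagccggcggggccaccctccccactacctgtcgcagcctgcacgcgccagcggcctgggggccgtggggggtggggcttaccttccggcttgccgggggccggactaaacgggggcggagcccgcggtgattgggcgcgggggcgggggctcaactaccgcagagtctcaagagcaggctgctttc
The GC content of these stretches was 54.0% for Bax, 72.4% for Bbc3 and 72.0% for Bcl2l11, beside a median of 52.4% over all windows.

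Prmt5 fell in Prmt5-null iGBs (log2 fold change -2.98, limma, Benjamini-Hochberg adjusted p = 6.14e-06), with 1060 to 1994 normalized counts against 11084 to 13087 in controls. Libraries held from 36731721 to 50366174 reads on genes. The lowest member value rested on 695 reads, for Bbc3 in control CTRL-10597, for which counting error alone is 3.79%, below the CV of 8.88% of Bbc3 between control mice. The 7 B cell markers were present, and their summed normalized counts overlapped between genotypes (158526 to 188765 in Prmt5-null and 156833 to 180231 in control), although Cd79a was lower (log2 fold change -0.74, limma adjusted p = 0.000327). The 4 germinal center markers were present, with the death receptor gene Fas higher (0.47, limma adjusted p = 0.00504), and 2 of the 4 plasma cell markers tested were lower. T cell markers summed to at most 19.0 normalized counts in a library with Cd3e at 0 in all, and myeloid markers to at most 119. Of 10 fibroblast markers 8 were tested and 3 were higher in Prmt5-null libraries at a limma adjusted p below 0.05, against 6.51% of all genes. The sum of all 10 was 7120 to 11862 in Prmt5-null libraries against 4657 to 8093 in controls. The part of feeder RNA in the results was not tested. In bulk RNA, fewer cells of a type and less RNA per cell cannot be told apart.

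In the main fit, by limma, loss of Prmt5 was accompanied by higher mRNA of 1 effector, 1 BH3-only gene and Apaf1. None of the pro-survival genes passed that test, though the estimates of all 3 were above 0. With limma on log2(normalized count + 1), 2 of the 10 members passed an adjusted p below 0.05 with at least a 1.5-fold change, beside 6.48% of the 16250 genes tested, and both (Bax and Bbc3) rose, where 3.49% of genes were called higher and 2.99% lower. Without the minimum fold, 3 members passed (Bax, Bbc3 and Apaf1), all higher, against 13.8% of all genes, 6.51% higher and 7.33% lower. edgeR on the recovered reads also passed 3 members, against 14.0% of all genes. Of members that were lower, 0 passed with limma, and 1 (Bak1) had an unadjusted p below 0.05. With that unadjusted p were 8 members, 7 higher and 1 lower, against 29.3% of all genes. DESeq2 on the recovered reads passed 7 members at an adjusted p below 0.05, against 18.9% of all genes. They were Bax, Bbc3, Apaf1, Pmaip1 and the pro-survival genes Bcl2 and Bcl2l1, all higher, and Bak1, which was lower. The genotypes did not overlap for 5 of 10 members, with Prmt5-null above for 4 and below for 1, against 19.8% of all genes, 9.67% above and 10.2% below. The median log2 fold change of the members was 0.28, with 8 above 0 and 2 below it, and that of all genes was 0.00, with 50.4% above 0. Medians by role were 0.21 for the 3 pro-survival genes and 0.25 for the 6 pro-death genes without Apaf1.

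**Figure D1:**
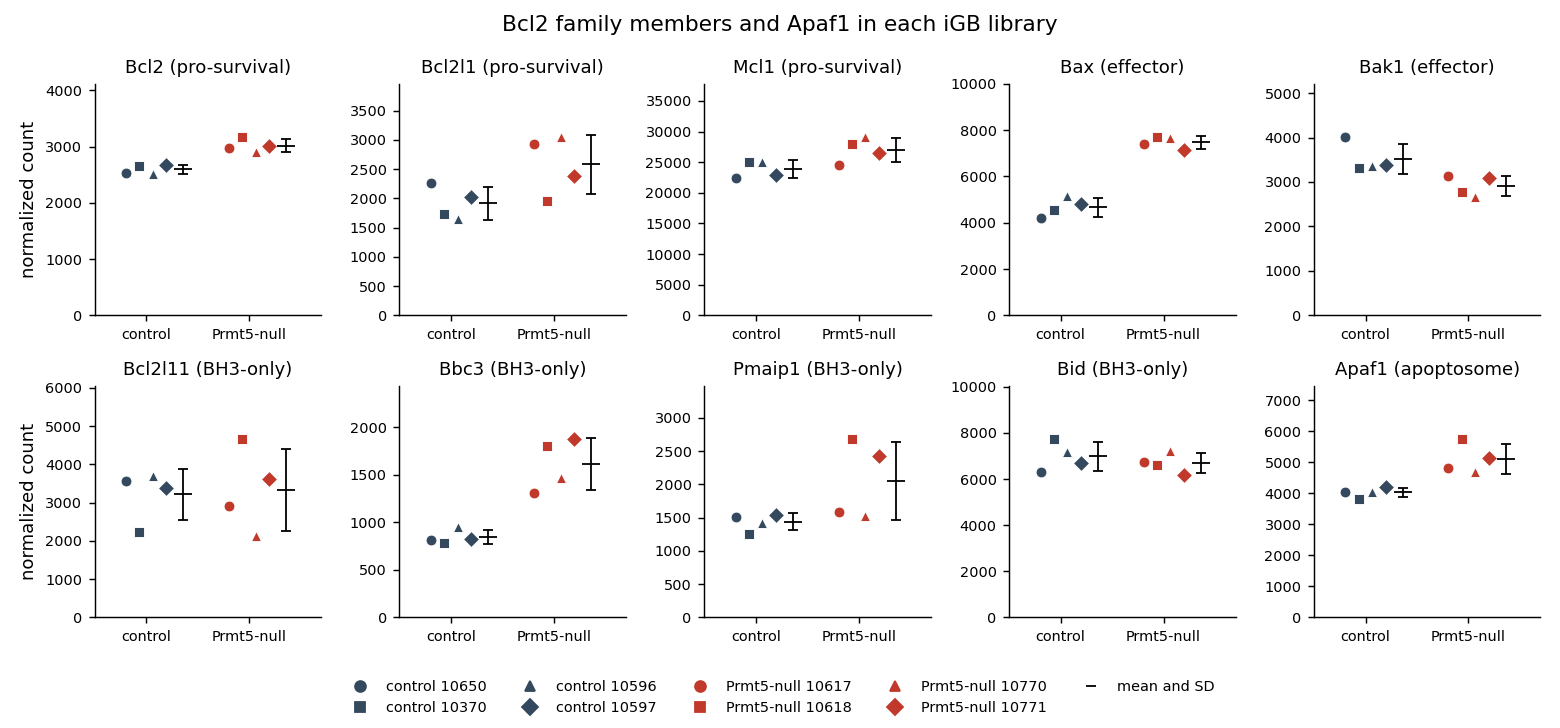
Normalized counts (y axis, linear, from 0) of the 10 members in each of the 4 control and 4 Prmt5-null libraries, with each mouse as a symbol and mean ± SD beside it. Bax, Bbc3, Bcl2 and Apaf1 libraries of Prmt5-null iGBs lie above all controls, Bak1 lies below, and the other 5 members overlap.

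Bcl2, the founding pro-survival member, had 2975, 3171, 2899 and 3011 normalized counts in Prmt5-null libraries 10617, 10618, 10770 and 10771, and 2525, 2659, 2519 and 2683 in controls, given here and in the rest of the text as CTRL-10650 and CTRL-10370, then CTRL-10596 and CTRL-10597. Every Prmt5-null library was above every control, and the spread within a genotype was among the narrowest of the members (CV 3.81% and 3.33%). It differed by 0.21 on the log2 scale (SE 0.07, 95% interval 0.07 to 0.36), with an adjusted p of 0.0559 by limma and an exact two-sided permutation p of 0.0286, the smallest that 4 against 4 libraries allow. The adjusted p thus missed the threshold. Of 19 alternatives it also missed it in 14 and passed in 5, among them limma without Prmt5-null 10770 (0.0422) and DESeq2 on the recovered reads (0.0146). These alternatives hold the 18 placements of libraries in experiments only by their lowest (0.0416) and highest (0.0930) limma adjusted p. With single libraries left out, the limma adjusted p reached 0.134. Bcl2 had an exonic overlap of 6.09% of its bases with D630008O14Rik on the opposite strand, a gene with at most 23.3 normalized counts in any library.

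Bcl2l1, which encodes Bcl-xL, had 2940, 1959, 3049 and 2382 normalized counts in Prmt5-null libraries and 2256, 1731, 1648 and 2025 in controls, in the order above. The genotypes overlapped, because Prmt5-null 10618 lay below 2 controls. Its difference on the log2 scale was 0.42 (SE 0.14, 95% interval 0.11 to 0.73), which did not pass (limma adjusted p = 0.0739, exact permutation p = 0.0857). Without Prmt5-null 10618 it was 0.55 with a limma adjusted p of 0.0139. With all 8 libraries DESeq2 gave an adjusted p of 0.0307, and limma with the experiment as a block gave between 0.00859 and 0.106 over the 18 placements.

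Mcl1, the pro-survival gene on which germinal center B cells are known to depend, had 24571, 27933, 29103 and 26531 normalized counts in Prmt5-null libraries and 22359, 25096, 25081 and 22857 in controls. Prmt5-null 10617 lay below 2 of the controls, and the other 3 lay above all of them. Its log2 fold change of 0.18 (SE 0.08, 95% interval 0.00 to 0.36) did not pass (limma adjusted p = 0.164, exact permutation p = 0.0857).

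The 2 effectors differed from control with opposite sign, and of them Bax passed the test. Bax, whose protein forms pores in the mitochondrial outer membrane, had 7391, 7698, 7666 and 7127 normalized counts in Prmt5-null libraries and 4185, 4563, 5153 and 4788 in controls. No libraries overlapped, and Bax was 1.6 times as high in Prmt5-null iGBs (7471 ± 267 against 4673 ± 406, SD, n = 4 mice each). The log2 fold change was 0.68 (SE 0.08, 95% interval 0.51 to 0.85, limma adjusted p = 0.000269), and the adjusted p stayed below 0.05 in every alternative fit. The Bax gene lies at chr7:45461697-45466898 of GRCm38 and shares 12.2% of its exonic bases with Gm45808 on the same strand, a gene not analysed here.

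Bak1, the other pore-forming effector, had 3125, 2783, 2655 and 3078 normalized counts in Prmt5-null libraries and 4009, 3318, 3357 and 3371 in controls. All 4 Prmt5-null libraries were below all controls, and the highest control, CTRL-10650, stood apart from the other 3. On the log2 scale Bak1 differed by -0.27 (SE 0.09, 95% interval -0.46 to -0.08), with a limma adjusted p of 0.0601 and an exact permutation p of 0.0286. DESeq2 on the recovered reads gave an adjusted p of 0.0357. Without CTRL-10650 the log2 fold change was -0.21, with a limma adjusted p of 0.152. Bak1 shares 25.5% of its exonic bases with Ggnbp1 on the opposite strand, which had 959 to 1139 normalized counts, and the strand setting of the counting is not given in the sources used here. Within each library the ratio of Bax to Bak1 was 2.58 ± 0.286 in Prmt5-null and 1.34 ± 0.211 in control iGBs (SD, n = 4 each), with the lowest Prmt5-null ratio, 2.31, above the highest control ratio, 1.53. This pair of genes was set against each other after the values were seen.

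Among the BH3-only genes, Bbc3 (PUMA), a p53 target that binds all pro-survival proteins, changed. It had 1309, 1800, 1467 and 1875 normalized counts in Prmt5-null libraries and 817, 781, 952 and 824 in controls. The lowest Prmt5-null library was above the highest control. Bbc3 was 1.90 times as high (1613 ± 269 against 844 ± 74.9, SD, n = 4 each), with a log2 fold change of 0.92 (SE 0.12, 95% interval 0.66 to 1.19, limma adjusted p = 0.00056). Leaving out single libraries moved this value between 0.85 and 1.02. Bbc3 lies at chr7:16308393-16318205 of GRCm38, and its exons overlap no other annotated gene.

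Pmaip1 (Noxa), a BH3-only gene that acts mainly against Mcl1, had 1588, 2681, 1523 and 2432 normalized counts in Prmt5-null libraries and 1513, 1257, 1425 and 1545 in controls. Libraries 10618 and 10771 were well above all controls, 10617 was slightly above them, and 10770 lay below the highest control. A log2 difference of 0.48 (SE 0.17, 95% interval 0.11 to 0.85) did not pass (limma adjusted p = 0.0831, exact permutation p = 0.0571). Without Prmt5-null 10770 it was 0.61 with a limma adjusted p of 0.0218, without 10618 it was 0.34 (limma adjusted p = 0.155) and without 10771 it was 0.38 (limma adjusted p = 0.212). DESeq2 with all 8 libraries gave an adjusted p of 0.0238.

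Bcl2l11 (Bim), which can bind all pro-survival proteins and whose dose is known to limit B cell survival, had 2910, 4662, 2130 and 3626 normalized counts in Prmt5-null libraries and 3553, 2232, 3708 and 3387 in controls. The ranges overlapped, with both the highest and the lowest values in Prmt5-null libraries. The difference was 0.02 on the log2 scale (SE 0.22, 95% interval -0.46 to 0.49, limma adjusted p = 0.969, exact permutation p = 0.943). The interval is not adjusted for the number of genes, so at this spread changes somewhat beyond it could also have missed the threshold. Its sign turned when Prmt5-null 10618 (-0.16), Prmt5-null 10771 (-0.04) or control CTRL-10370 (-0.15) was left out.

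Bid, which caspase 8 cleaves to link death receptors to mitochondria, had 6738, 6594, 7225 and 6195 normalized counts in Prmt5-null libraries and 6328, 7735, 7191 and 6681 in controls. The genotypes overlapped throughout. The log2 fold change was -0.06 (SE 0.08, 95% interval -0.24 to 0.12, limma adjusted p = 0.672). Bid shares 17.7% of its exonic bases with Bcl2l13 on the opposite strand, which had 2510 to 3054 normalized counts.

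Apaf1, the scaffold of the apoptosome, had 4807, 5741, 4682 and 5148 normalized counts in Prmt5-null libraries and 4051, 3827, 4030 and 4198 in controls. All Prmt5-null libraries were above all controls. Its 1.26-fold rise gave a log2 fold change of 0.34 (SE 0.08, 95% interval 0.16 to 0.51, limma adjusted p = 0.0155), below the 1.5-fold line. Without Prmt5-null 10771 the log2 fold change was 0.33 and the limma adjusted p 0.0516, so the effect kept its size while the p crossed the threshold.

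**Figure D2:**
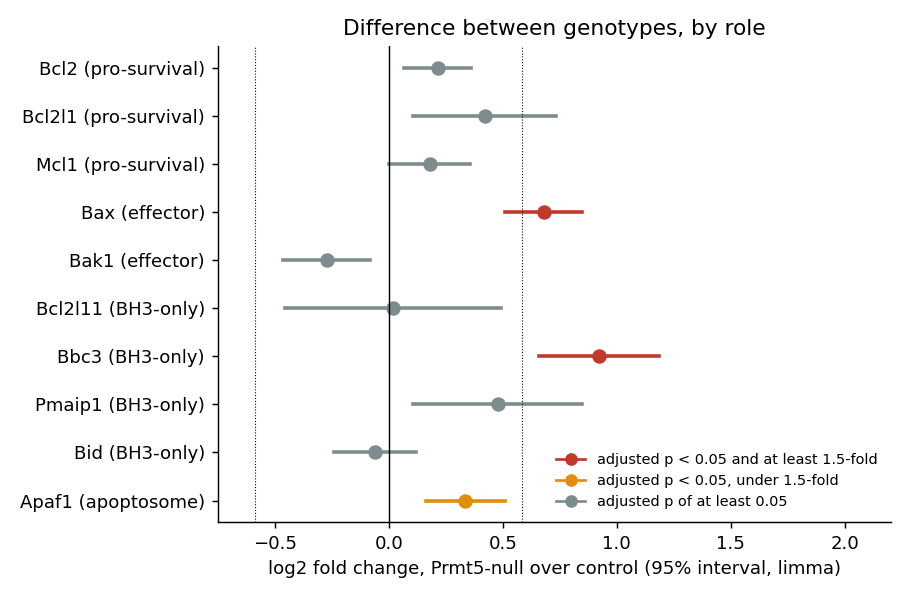
Log2 fold change of Prmt5-null over control (x axis) for the 10 members in order of role, with 95% intervals from limma and dotted lines at 1.5-fold. Bax (0.68) and Bbc3 (0.92) passed both thresholds, Apaf1 (0.34) passed the adjusted p alone, and the intervals of Bcl2l11 and Bid span 0.

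Levels of different genes were compared per 1000 bases of exonic length. In controls Mcl1 was highest at 6977 ± 423 normalized counts per 1000 bases (SD, n = 4), followed by Bax at 2965 ± 257, Bid at 1967 ± 173 and Bak1 at 1460 ± 137. These 4 were apart from each other and from the rest in every library. Below them Pmaip1 (525 ± 47.3), Apaf1 (446 ± 16.9), Bcl2l1 (418 ± 60.9), Bcl2l11 (401 ± 83.7) and Bbc3 (397 ± 35.3) formed a run in which each overlapped with the next. Bcl2 was lowest at 284 ± 9.44, with its highest library (293) below the lowest of Bbc3 (368). In Prmt5-null iGBs Bbc3 moved from rank 9 to rank 5, at 759 ± 127 normalized counts per 1000 bases and overlapping with Pmaip1 at 753 ± 215, while Mcl1, Bax, Bid and Bak1 kept the first 4 places and Bcl2 the last. Division by the longest annotated transcript left the first 4 places and the last alone, but put Bcl2l1 at rank 5 and Pmaip1 at rank 8 in controls. In Prmt5-null iGBs that division put Bcl2l1 (1006) above Bbc3 (889), so the new rank of Bbc3 depends on the length used.

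To weigh the members against each other within a library, each of the 6 pro-death genes was divided by each of the 3 pro-survival genes, which gave 18 pairs that share genes. The pairs split evenly, with 9 ratios higher and 9 lower in Prmt5-null iGBs and a median log2 difference of -0.05, whose sign turned without Prmt5-null 10617 (0.04), Prmt5-null 10770 (0.17) or control CTRL-10596 (0.01). Ratios lay above all controls in all Prmt5-null libraries for 4 pairs, Bax and Bbc3 over Bcl2 and over Mcl1. They lay below for 4 pairs, Bak1 over each pro-survival gene and Bid over Mcl1, and overlapped for 10. These are descriptions of the ratios of normalized counts, with no test and no share over ratios of other genes to set the counts against.

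The ratio of Bax to Bcl2 was 2.48, 2.43, 2.64 and 2.37 in the Prmt5-null libraries and 1.66, 1.72, 2.05 and 1.78 in controls. The groups did not overlap, with a log2 difference of 0.47 (SE 0.07). The ratio of Bbc3 to Mcl1 was 0.0533, 0.0644, 0.0504 and 0.0707 against 0.0366, 0.0311, 0.0380 and 0.0360, a log2 difference of 0.74 (SE 0.13). The ratio of Bak1 to Bcl2 went the other way, at 1.05, 0.878, 0.916 and 1.02 against 1.59, 1.25, 1.33 and 1.26, a log2 difference of -0.49 (SE 0.10). With Bcl2l1 as the denominator, ratios of Bax, Bbc3 and Pmaip1 overlapped between genotypes, and Bcl2l1 itself ranged widely among Prmt5-null libraries.

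**Figure D3:**
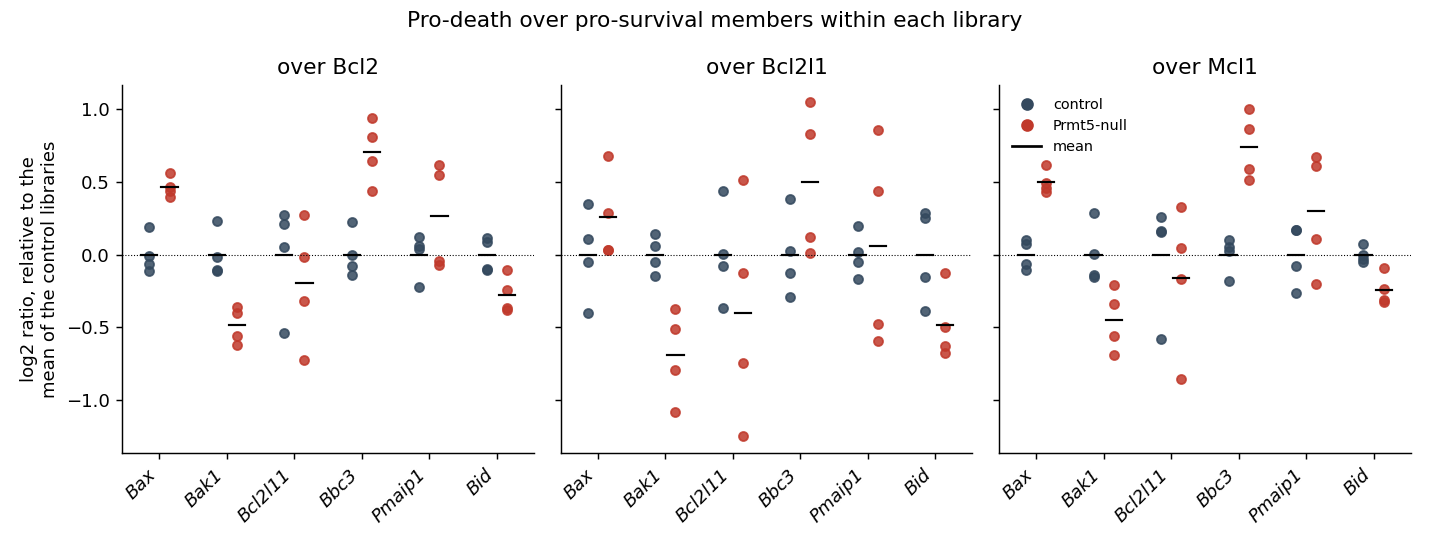
Log2 ratio of each pro-death gene (x axis) to Bcl2, Bcl2l1 or Mcl1 (panels) in each library, set to 0 at the control mean, with bars at the genotype means. Bax and Bbc3 over Bcl2 and Mcl1 lie above the controls, Bak1 lies below them in all 3 panels, and Bcl2l11 ratios spread the most.

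The members differed in how much mice of 1 genotype varied. Bcl2l11 had a CV of 32.3% in Prmt5-null and 20.9% in control libraries, Pmaip1 28.6% and 9.0%, and Bcl2l1 19.7% and 14.6%, whereas Bax had 3.58% and 8.68%. Among Prmt5-null libraries, 10618 and 10771 were above their genotype's mean on the log2 scale for Bcl2l11, Bbc3, Pmaip1 and Apaf1, and 10617 and 10770 were below it for the same 4 genes. Bcl2l1 deviated the other way in all 4 libraries. For Bcl2l11 the deviations were -0.14, 0.54, -0.59 and 0.18 in the order 10617, 10618, 10770 and 10771, and for Bcl2l1 they were 0.21, -0.38, 0.26 and -0.09. In controls, the low library for Bcl2l11, Bbc3, Pmaip1 and Apaf1 was CTRL-10370 in each case, with deviations of -0.50, -0.11, -0.19 and -0.07. There Bcl2l1 and Bcl2l11 shared their sign in CTRL-10650 (0.25 and 0.17), CTRL-10370 (-0.13 and -0.50) and CTRL-10597 (0.09 and 0.10). They were opposite only in CTRL-10596 (-0.20 and 0.23). Fibroblast marker sums of the Prmt5-null libraries were 11862 in 10617, 7120 in 10618, 9540 in 10770 and 8381 in 10771, so they were higher in the pair with low Bcl2l11. The part of feeder RNA in this pattern was not tested, and control CTRL-10370, also low in Bcl2l11, had the lowest sum, 4657.

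**Figure D4:**
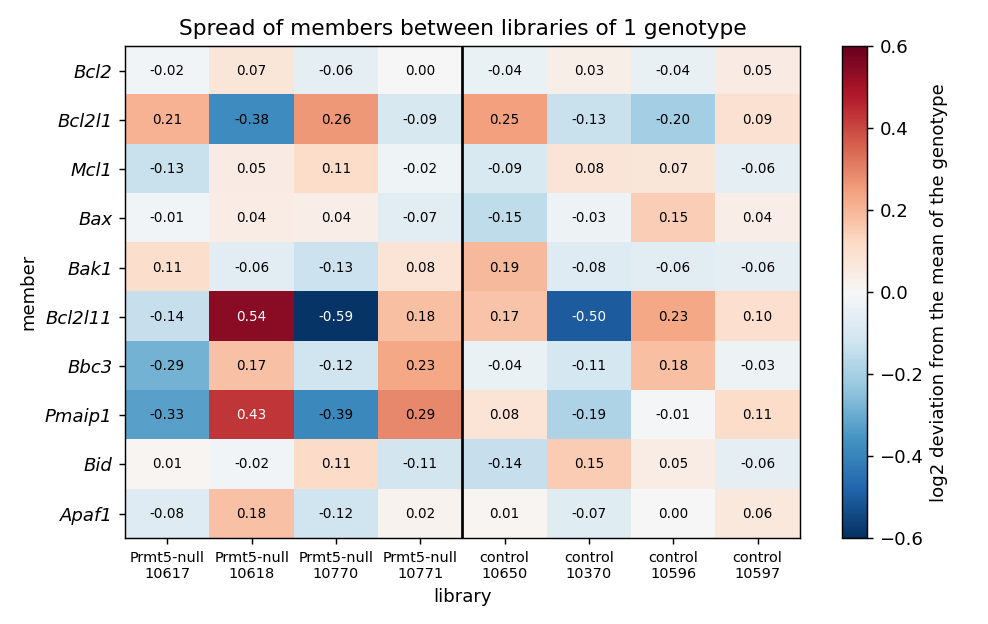
Log2 deviation of each member (rows) from the mean of its genotype in each library (columns), in colour and as a number. Bcl2l11 (0.54 in Prmt5-null 10618 and -0.59 in 10770) and Pmaip1 deviate the most, with Bcl2l1 opposite in sign in the Prmt5-null libraries, and Bcl2 the least.

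Other genes of the pathway were taken as 3 lists. Of 17 further Bcl2 family genes 14 were tested, 3 rose and 1 fell at the adjusted p, beside 13.8% of all genes at that threshold, and the median log2 fold change was -0.10. Bcl2l15 rose from 26.8 ± 7.45 to 61.0 ± 14.0 normalized counts (SD, n = 4 each, log2 fold change 1.17, limma adjusted p = 0.0119), a low level. Bcl2a1b rose from 8723 ± 1001 to 13210 ± 2882 (0.58, limma adjusted p = 0.0131) and Bcl2a1a by 0.52 (limma adjusted p = 0.0455). These 2 encode A1, a pro-survival protein induced by CD40 signals, but A1 genes are near-identical copies, so the assignment of reads to each is uncertain. Another A1 gene, Bcl2a1d, went from 6099 ± 754 to 8261 ± 1728, overlapped between genotypes and did not pass (0.42, limma adjusted p = 0.0541). Bcl2l12 fell by 0.41 (limma adjusted p = 0.0117). Of the 3 genes not tested, Bcl2l10 was at 0 in all libraries, and Bok and Hrk were below the filter.

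In the list of 18 apoptosome and mitochondrial release genes, 1 rose and 2 fell, with a median of -0.03. This count is near the 13.8% of all genes that passed, so nothing about the list is read from it. Htra2, a mitochondrial protease released during apoptosis, fell from 3554 ± 230 to 2277 ± 135 normalized counts (SD, n = 4 each, log2 fold change -0.64, limma adjusted p = 0.000327). Dffb, the caspase-activated DNase, rose from 1114 ± 60.3 to 1716 ± 57.9 (0.62, limma adjusted p = 0.000377). Casp9, the caspase that Apaf1 activates, fell by 0.36 on the log2 scale (limma adjusted p = 0.0318), with 730 to 804 normalized counts against 859 to 1139 in controls. Thus Apaf1 and Casp9, 2 parts of 1 complex, moved in opposite directions.

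Among 18 upstream regulators 2 rose and 1 fell, with a median of -0.01, a count that is likewise near the 13.8% of all genes. Mdm2, the ubiquitin ligase that restrains p53 and is itself a p53 target, rose from 7297 ± 345 to 11010 ± 1357 normalized counts (SD, n = 4 each, log2 fold change 0.59, limma adjusted p = 0.00162). Trp53 rose by 0.39 (limma adjusted p = 0.0143), and Ddit3 (CHOP), a stress factor that can induce Bcl2l11, fell by 0.54 (limma adjusted p = 0.00548).

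**Figure D5:**
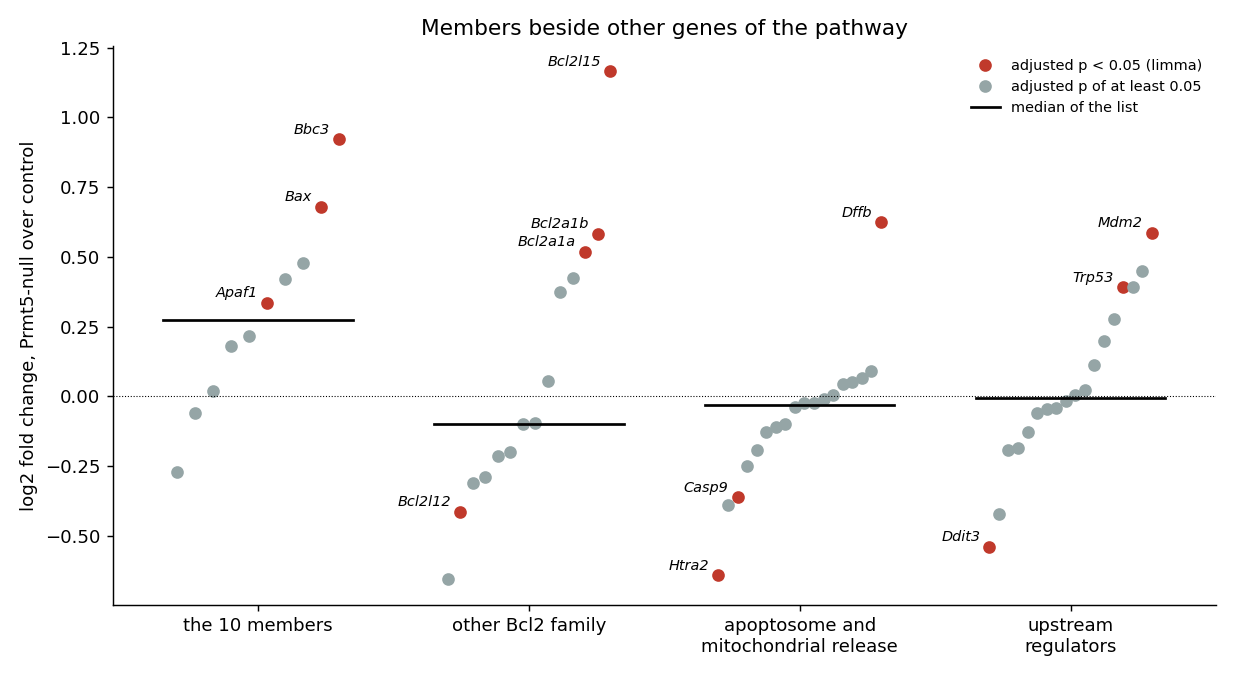
Log2 fold change (y axis) of every tested gene of the 4 gene lists, each ordered by value, with genes that passed an adjusted p below 0.05 named and a bar at the median. The 10 members have a median of 0.28, and the medians of the other lists are -0.10, -0.03 and -0.01.

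The genes whose log2 values over the 8 libraries were most like those of Bbc3, among 13300 with a mean above 50, were Mdm2 (Pearson r 0.998), Celf4 (0.992) and Nt5dc3 (0.992). For Bax they were Tbc1d8 (0.994), Lsm14b (0.993) and 9030617O03Rik (0.990). The 8 points share the difference between genotypes, so these values only rank likeness.

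The deposited splicing tables held 1918 events in 1519 genes, which is 11.4% of the 13300 genes with a mean above 50. None of the 10 members had an event there. The tables keep events that passed the authors' filter, so absence says only that no event of the gene is listed, and no splicing level of a member was analysed here. Among the other lists, 1 gene of the Bcl2 family, 3 of the apoptosome list and 5 of the upstream list had events, and those named next were chosen after their values were seen. In Htra2, exon inclusion was 0.845 to 0.927 in the authors' control values and 0.533 to 0.697 in the Prmt5-null values, and the level of a retained intron was 0.187 to 0.381 in control and 0.438 to 0.623 in Prmt5-null values. An exon of Mdm2 had inclusion levels of 0.616 to 0.705 in control and 0.470 to 0.549 in Prmt5-null values. An exon of Mdm4 had 0.163 to 0.341 in control and 0.081 to 0.128 in Prmt5-null values. A mutually exclusive exon event of Mdm4 had 0.781 to 0.860 and 0.895 to 0.940. An alternative 5′ site of Bcl2l12 ranged from 0.234 to 0.412 in control and from 0.374 to 0.661 in Prmt5-null values, which overlap.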

How the data were processed

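The study's authors removed ribosomal RNA, trimmed reads with Trimmomatic 0.32, aligned them to mm10 (GRCm38) with STAR 2.3.0e and counted uniquely mapped reads on Ensembl exons with featureCounts 1.4.4. The strand setting of the counting is not given in the sources used here. What the authors deposited for genes is a normalized signal, the read count over a size factor from DESeq2. The authors deposited splicing events as inclusion fractions (4 per genotype, not named by library), with the read counts behind them and with p-values and differences of their own comparison, which were not used.

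Values were whole multiples of 1 read in each library (tolerance 0.001 reads), so reads were recovered. The 2 genotypes were tested by limma 3.58.1 in R 4.3.3, with lmFit and a trended eBayes, on log2(normalized count + 1) over 16250 genes with a mean of at least 10, with Benjamini-Hochberg adjustment over all of them, and log2 values understate changes of low genes. Calls needed a 1.5-fold change besides an adjusted p below 0.05. Single genes were also tested with an exact two-sided permutation over 70 assignments. edgeR 4.0.16 and DESeq2 1.42.0 on recovered reads, normalizations, filters, pseudocounts, thresholds, libraries left out and the experiment as a block in 18 placements were alternatives. The fit was also run on simulated data, with changes of 2-fold and the same dispersion for every gene. That setting covers neither smaller changes nor the wide spread of members such as Bcl2l11. Python 3.11.15 was used for ratios and sequences, with RefSeq start sites and GENCODE exons of GRCm38. P-values measure the spread between mice, which includes that between the experiments, since the main fit had no term for them.

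The members and lists were chosen with earlier results of these data known, and 1 gene of a list is not reported here. All members are named, and of each list at most 5 genes with the largest changes at an adjusted p below 0.05. Bcl2a1d and Mdm4 are named besides these, as are the genes not tested. For the likeness in pattern, the 3 most similar genes of each called member are named.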

Additional observations from a re-analysis of the deposited data

Results flagged for a closer look

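Of 42 groups of 4 libraries, 5 held a library that stood apart from the other 3 by Dixon's criterion at 95%, where chance alone marks about 1 in 20 groups. Among the members this was the control library CTRL-10650 for Bak1, with 4009 normalized counts against 3371 in the next. Among the other genes named, Prmt5-null 10770 was high for Bcl2a1b (17518, next 11957), Prmt5-null 10617 was high for Trp53 (4409, next 3733), and control CTRL-10596 was high for Mdm2 (7809, next 7169). Control CTRL-10597 was high for Bcl2l15, with 37.9 normalized counts against 23.3 in the next.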

How the results depend on the processing

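Bax and Bbc3 passed the 1.5-fold call in every alternative fit at that threshold, where 2 or 3 members were called, and 0 members passed at 2-fold. Members with an adjusted p below 0.05 numbered 3 and went to 7 with DESeq2, up to 7 with the experiment as a block in its 18 placements, and between 2 and 5 with 1 library left out, 5 without Prmt5-null 10770. Across the alternatives Bak1 kept its direction, with adjusted p from 0.0357 to 0.152, and so did Bcl2 (0.0146 to 0.134), Bcl2l1 (0.00859 to 0.189), Pmaip1 (0.0141 to 0.212) and Apaf1 (0.00154 to 0.0516). Bcl2l11 ranged from -0.16 to 0.21 on the log2 scale with libraries left out. The median of the 18 log2 ratio differences ranged from -0.21 to 0.17, an alternative chosen after seeing the data. The cause of these changes was not tested. No paired analysis was possible, because each library came from its own mouse and no label ties a library to its experiment. With 4 mice per genotype, members with wide spreads, such as Bcl2l11, limit what could be detected more than depth did.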
